A study of Rattus norvegicus with 9 samples.

Results

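The AP-1 transcription factors and Atf3 were followed as 7 genes, taken by symbol from a table of 30446 genes: Fos, Fosb and Fosl2 of the Fos family, Jun, Junb and Jund of the Jun family, and Atf3. All 7 passed the low-count filter, as did 16627 genes in all, which were the genes tested. AP-1 is a dimer of basic leucine zipper proteins in which a Fos protein needs a Jun protein as partner, while Jun proteins can also pair with each other or with ATF proteins. Fos, Fosb and Junb are classic immediate early genes, transcribed within minutes of depolarization or a growth factor signal, and Jund is made more steadily in most cells. In sensory neurons Atf3 and Jun are known for their strong rise after a peripheral nerve is cut, and Fos is best known as an activity marker of the spinal dorsal horn.

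The tissue was the dorsal root ganglion (DRG), which holds the cell bodies of sensory neurons with their satellite glia and Schwann cells. The rats were male and of the Sprague-Dawley strain, and ganglia of thoracic levels T12 and T13 and of lumbar levels L1 to L6 were taken from both sides. The 9 RNA libraries came in 3 groups, with 3 from naive animals, 3 from animals given a sham operation and 3 from animals with spinal cord injury (SCI). All 3 groups carry the label of 30 days after injury, the naive rats included. The sources used here do not give the kind and force of the injury or the steps of the sham operation. The submitters call the libraries biological replicates, but whether each came from 1 animal or from pooled animals is not stated, so a p-value here reflects only how the deposited libraries vary.

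Totals per library ran from 16724878 to 32060538 counts, and the naive libraries were separated from the sham and SCI libraries by a first principal component, which held 59.3% of the variance. The sham libraries were spread widely along the second component, with sham 1 at -25.9 and sham 3 at 26.2. The DRG label held against its markers: all 12 sensory neuron markers were detected, with a summed level of 28392 to 41910 CPM (counts scaled to library size), and the markers of satellite glia (7) and Schwann cells (8) were all detected too. No marker of the 10 cell types looked at was called between SCI and sham. Since 0% of all genes were called there, this cannot show whether the cell make-up of the 2 groups was alike. Only the endothelial gene Cldn5 was listed at 0 in every library. The summed level of 10 skeletal muscle genes was 134 to 154 CPM in sham, 62.5 to 98.5 in SCI and 62.5 to 101 in naive.

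The bases before the annotated start of transcription are shown for 3 genes, Fosb and Junb, whose level differed between groups, and Jund, whose level passed no test. RefSeq (build GRCr8) gave a promoter for 4 of the 7 genes (Fosb, Fosl2, Junb and Jund) and has no entry in the table used for Fos, Jun and Atf3. Each sequence holds the 250 bases upstream of the start, 5′ to 3′ on the gene's strand, and capitals mark matches to TGACGTCA (the cAMP response element, bound by CREB and ATF proteins and some Jun dimers), CCAAT or TATAAA on either strand.
Fosb, chr1:88089185-88089434, minus strand: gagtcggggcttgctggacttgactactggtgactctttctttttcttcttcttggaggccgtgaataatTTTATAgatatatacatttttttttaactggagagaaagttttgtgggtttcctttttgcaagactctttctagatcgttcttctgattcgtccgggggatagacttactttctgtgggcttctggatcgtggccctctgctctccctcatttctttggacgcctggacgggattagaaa
Junb, chr19:40080876-40081125, plus strand: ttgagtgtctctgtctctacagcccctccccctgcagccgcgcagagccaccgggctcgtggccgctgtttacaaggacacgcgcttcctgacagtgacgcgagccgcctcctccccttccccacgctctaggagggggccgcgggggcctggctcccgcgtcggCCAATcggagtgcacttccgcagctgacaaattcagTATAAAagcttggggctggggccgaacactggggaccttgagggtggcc
Jund, chr16:18769772-18770021, minus strand: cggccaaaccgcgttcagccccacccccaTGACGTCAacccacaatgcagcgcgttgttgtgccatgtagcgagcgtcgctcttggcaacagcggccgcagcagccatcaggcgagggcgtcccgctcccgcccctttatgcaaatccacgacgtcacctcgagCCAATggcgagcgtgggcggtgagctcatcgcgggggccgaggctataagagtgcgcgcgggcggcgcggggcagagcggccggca

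These 3 windows differ in composition and in the short motifs they hold. The Fosb window has 43.6% G and C, against 66.0% for Junb, 68.4% for Jund, 70.4% for Fosl2 and a median of 51.2% over 33469 rat promoters. Its single match is TATAAA on the opposite strand at position -180, counted from the start. Junb has CCAAT at -85, TATAAA at -49 and TGACG, the core of the cAMP response element, at -155. Jund has the full TGACGTCA at -221, which contains TGACG on both strands, a further TGACG on the opposite strand at -98 and CCAAT at -86. Among all promoters TGACGTCA occurs in 1.59%, TGACG in 18.2%, CCAAT in 34.0% and TATAAA in 12.9%. The AP-1 element TGACTCA (4.05% of all promoters) and the CArG box of serum response factor (1.497%) have no match in the windows of Fosb, Fosl2, Junb and Jund. A match describes letters in this window and no binding was measured.

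Fos and Fosb were the members that stood highest in the SCI libraries relative to both other groups, Junb and Atf3 rose against naive rats, and Jun, Jund and Fosl2 did not pass after adjustment in any comparison. Fos encodes c-Fos, the founding member of its family. It was measured at 6.91, 5.86 and 7.84 CPM in naive libraries 1 to 3, at 5.55, 6.96 and 8.63 in sham libraries 1 to 3, and at 11.2, 11.8 and 12.6 in SCI libraries 1 to 3. All 3 SCI libraries lay above all 6 controls, and the naive and sham libraries were interleaved. The group means were 6.87 ± 0.992, 7.05 ± 1.54 and 11.9 ± 0.746 CPM (SD, n = 3 each), from 117 to 361 counts per library. Between SCI and sham the log2 change was 0.76 (SE 0.15, 95% interval 0.43 to 1.09, or 1.69-fold), with an unadjusted p of 0.000268 in edgeR's quasi-likelihood test that ranked it 9 of 16627 genes and did not pass after Benjamini-Hochberg adjustment (adjusted p = 0.495). Against naive the log2 change was 0.78 (SE 0.15, edgeR adjusted p = 0.000790). Between sham and naive it was 0.03 (95% interval -0.32 to 0.37). In a bulk ganglion, fewer cells of a type and less RNA per cell cannot be told apart, for this and every other gene.

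**Figure D1:**
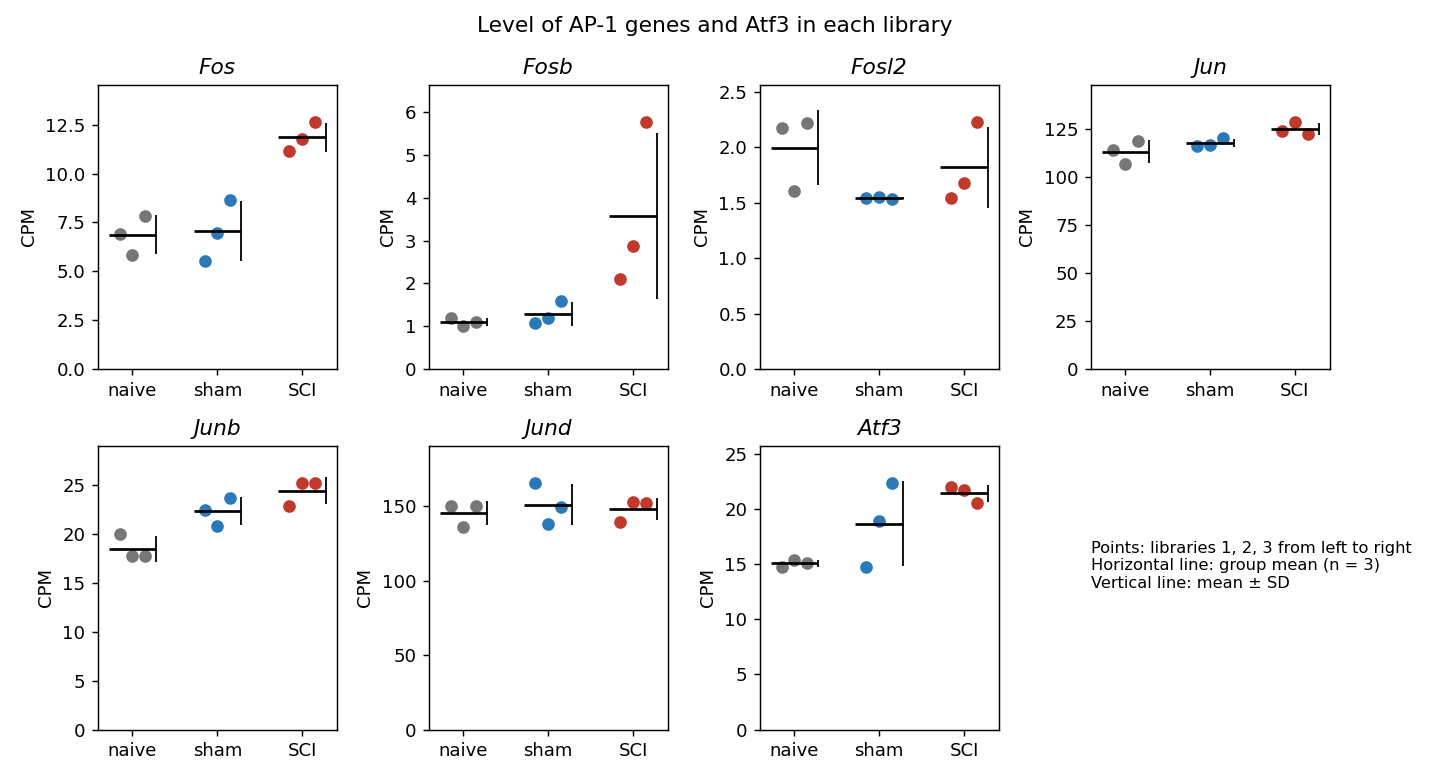
Level of each gene in CPM (vertical axis, from 0, with its own scale for each gene) in the 3 naive, 3 sham and 3 SCI libraries; points are libraries, the horizontal line is the group mean and the vertical line is the mean ± SD. For Fos, Fosb and, by a small margin, Jun all 3 SCI libraries sit above all 6 controls. For Junb and Atf3 the naive libraries sit below the SCI libraries, and for Jund the groups overlap.

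Fosb, a Fos relative whose truncated splice form ΔFosB is known to build up with repeated stimulation, had the largest fold of the 7 genes between SCI and sham. The naive libraries 1 to 3 held 1.19, 1.01 and 1.09 CPM, the sham libraries 1.07, 1.19 and 1.59, and the SCI libraries 2.10, 2.87 and 5.78. The SCI libraries lay above all 6 controls, and the naive and sham libraries overlapped. SCI 3 held 127 counts where SCI 1 and SCI 2 held 68 and 58, and the control libraries held 20 to 34. The group means were 1.10 ± 0.0935 CPM in naive, 1.28 ± 0.273 in sham and 3.58 ± 1.94 in SCI (SD, n = 3 each). The log2 change against sham was 1.46 (SE 0.34, 95% interval 0.73 to 2.20, or 2.76-fold; unadjusted p 0.000864, rank 15, edgeR adjusted p = 0.957). Without SCI 3 this change fell to 0.94, and without SCI 1 it was 1.77. Against naive the change was 1.68 (SE 0.33, edgeR adjusted p = 0.000983), and it was 1.152 without SCI 3, where it still passed. SCI 3 was also the SCI library with the highest summed level of 6 neutrophil markers (105 CPM, against 47.1 and 46.9 in SCI 1 and 2 and 46.7 to 80.0 in the controls) and of 4 red blood cell genes (787 CPM, against 378 and 431 in SCI 1 and 2 and 327 to 875 in the controls), and their part in the Fosb value was not tested. A long noncoding gene, LOC103691049, overlaps Fosb in the RefSeq annotation, and the kit does not mark strand, so reads of both cannot be told apart where they overlap. It held 11, 9 and 8 counts in SCI, 3 in each sham library and 2, 8 and 7 in naive.

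Fosl2 encodes Fra-2, a Fos relative without the strong activation domain of c-Fos, and it did not share the Fos and Fosb pattern. It stood at 2.17, 1.61 and 2.22 CPM in naive libraries 1 to 3, at 1.54, 1.55 and 1.54 in sham and at 1.55, 1.68 and 2.23 in SCI, from 26 to 69 counts. The 3 sham libraries lay below every naive library and beside SCI 1, and SCI 3 was level with the highest naive library. The log2 change was 0.22 between SCI and sham (95% interval -0.24 to 0.68), -0.15 between SCI and naive (-0.56 to 0.27) and -0.37 between sham and naive (-0.81 to 0.07, edgeR adjusted p = 0.148). Fos reads, with no account of gene length, came to 346 ± 24.2% of Fosl2 reads in naive, 457 ± 101% in sham and 663 ± 83.7% in SCI (SD, n = 3 each).

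Jun, which encodes c-Jun, the partner activated by JNK kinases in injured neurons, was nearly level across the study. It was measured at 114, 107 and 119 CPM in naive libraries 1 to 3, at 116, 117 and 120.3 in sham and at 124, 129 and 122 in SCI. Each SCI library was above each control library, by a small margin. The group means were 113 ± 6.00, 118 ± 2.27 and 125 ± 3.25 CPM (SD, n = 3 each). The log2 change of 0.09 against sham had a 95% interval from -0.04 to 0.22, and the change of 0.14 against naive (SE 0.06) had an edgeR adjusted p of 0.0660. Fos reads came to 6.05 ± 0.560% of Jun reads in naive, 5.97 ± 1.20% in sham and 9.49 ± 0.733% in SCI (SD, n = 3 each). The 3 SCI values of this ratio, 8.99%, 9.14% and 10.3%, lay above the highest control value, 7.18% in sham 3.

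Junb, an immediate early Jun protein that can restrain c-Jun, rose against naive in both operated groups. Naive libraries 1 to 3 were at 20.0, 17.7 and 17.7 CPM, sham libraries at 22.4, 20.8 and 23.7, and SCI libraries at 22.8, 25.2 and 25.2. All 3 naive libraries lay below all 6 others, while sham 3 lay above SCI 1. The log2 change was 0.40 (SE 0.08, 1.32-fold, edgeR adjusted p = 0.00135) between SCI and naive and 0.27 (SE 0.08, 1.21-fold, adjusted p = 0.0138) between sham and naive. These changes share the naive libraries. Between SCI and sham it was 0.12 (95% interval -0.05 to 0.30). The sham against naive call was lost without naive 2 (edgeR adjusted p = 0.0538) and without naive 3 (0.0636).

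Jund, the Jun protein with the most constant expression in most cells, had overlapping groups throughout. Its libraries ran from 136 to 149.9 CPM in naive, 138 to 166 in sham and 139 to 153 in SCI. The 95% interval of the log2 change was -0.20 to 0.14 between SCI and sham, -0.14 to 0.19 between SCI and naive and -0.11 to 0.22 between sham and naive. Junb reads came to 12.7 ± 0.816% of Jund reads in naive, 14.8 ± 1.17% in sham and 16.5 ± 0.0756% in SCI (SD, n = 3 each), and the SCI libraries, from 16.4% to 16.6%, were above all controls. Jun reads came to 78.0 ± 1.68%, 78.4 ± 7.42% and 84.6 ± 4.30% of Jund reads (SD, n = 3 each), and the groups overlapped.

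Atf3, the ATF family factor used as a mark of axotomized sensory neurons, had its highest mean in SCI, and its sham libraries spanned the whole range of the 9 libraries. Naive libraries 1 to 3 held 14.8, 15.4 and 15.1 CPM, sham libraries 14.7, 18.9 and 22.4, and SCI libraries 21.98, 21.7 and 20.5. The naive libraries were tight and below every SCI library, sham 1 was the lowest of all 9, just under the naive libraries, and sham 3 was the highest of all 9. Atf3 rose between SCI and naive (log2 change 0.50, SE 0.12, 1.42-fold, edgeR adjusted p = 0.00334). The change was 0.30 between sham and naive (SE 0.12, edgeR adjusted p = 0.0547) and 0.21 between SCI and sham (95% interval -0.05 to 0.47). Without sham 1 the change between sham and naive was 0.45 and passed (edgeR adjusted p = 0.000729), and the change between SCI and sham was 0.05. Without sham 3 the change between sham and naive was 0.14 (edgeR adjusted p = 0.244) and that between SCI and sham was 0.36 (edgeR adjusted p = 0.151). Garin4, a RefSeq gene that overlaps Atf3, held 1 count in SCI 1 and 0 in the other libraries.

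**Figure D2:**
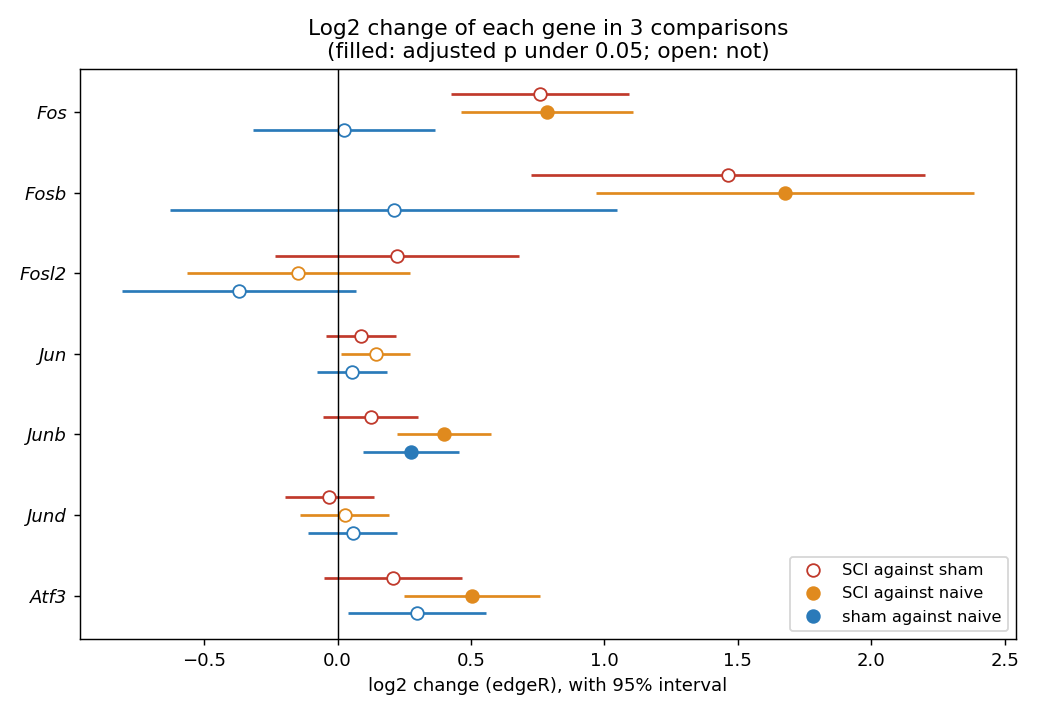
Log2 change of each gene with its 95% interval (horizontal axis) for SCI against sham, SCI against naive and sham against naive; filled points passed an edgeR adjusted p of 0.05. The filled points are Fos, Fosb, Junb and Atf3 for SCI against naive and Junb for sham against naive, and no point is filled for SCI against sham.

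Counted over the 7 genes, none passed between SCI and sham, where edgeR called 0% of all 16627 genes. At an unadjusted p under 0.05 edgeR gave 526 genes, DESeq2 called 8 after adjustment and limma-voom 0. The 2 members at an unadjusted p under 0.05 were Fos and Fosb, both higher, where 2.13% of all genes were higher at that p. For 3 members (Fos, Fosb and Jun) all SCI libraries lay above all sham libraries, as did 3.3% of all genes. In these 3 members the SCI libraries also lay above all naive libraries. The share of all genes above both control groups in this way was not counted. DESeq2 called Fos (adjusted p = 0.0274) but not Fosb (0.0952). EdgeR without the low-count filter called both (adjusted p = 0.0116 and 0.0158), and without sham 3 it called Fos, with a log2 change of 0.94 (adjusted p = 0.0385). The median log2 change of the 7 genes was 0.21, beside -0.00078 over all genes.

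**Figure D3:**
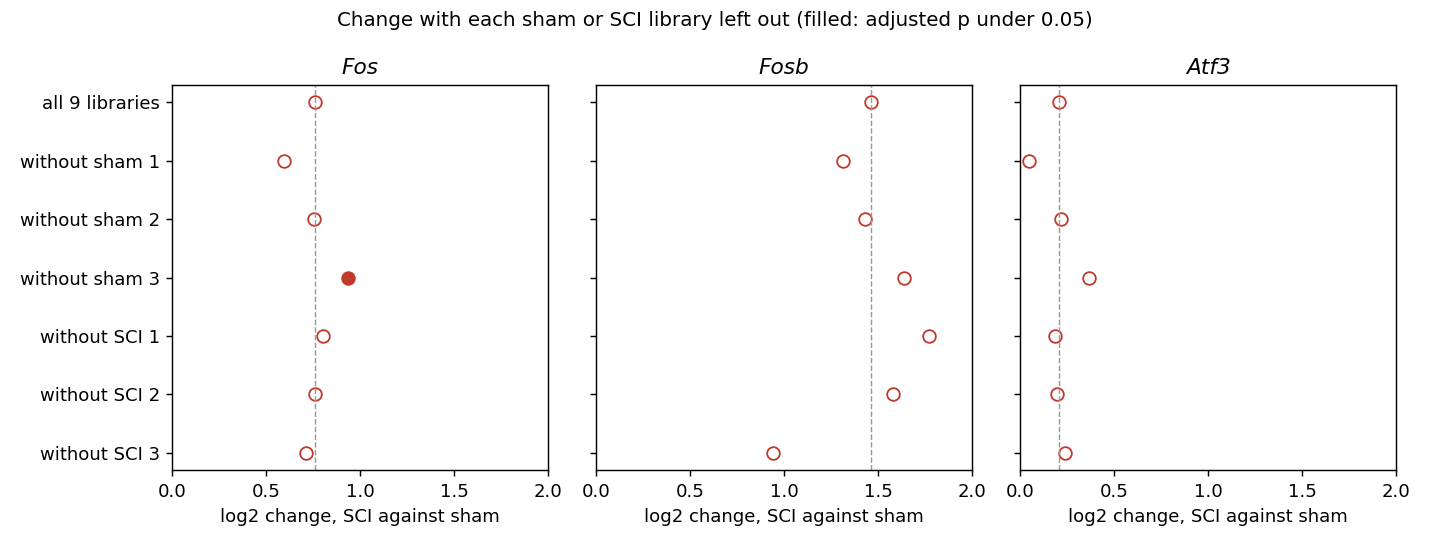
Log2 change between SCI and sham (horizontal axis) for Fos, Fosb and Atf3 with all 9 libraries and with each sham or SCI library left out; the dashed line is the value with all libraries and a filled point passed an edgeR adjusted p of 0.05. The Fos values lie between 0.59 and 0.94, with the 1 filled point without sham 3, the Fosb values between 0.94 and 1.77, and the Atf3 values between 0.05 and 0.36.

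Against naive rats, 4 of the 7 genes rose with SCI (Fos, Fosb, Junb and Atf3) and none fell, where 23.9% of all genes were called higher and 24.6% lower. The median log2 change of the 7 genes was 0.40, beside 0.01 over all genes. Between sham and naive 1 gene rose (Junb) and none fell, against 24.7% of all genes called higher and 25.9% lower. The satellite glia markers summed to 3875 to 3944 CPM in naive and 6604 to 8853 in the operated groups. Most of that sum was Apoe, with means of 3390 CPM in naive, 6946 in sham and 6667 in SCI. Fabp7 and Kcnj10 were also higher in the operated groups, Glul, Slc1a3 and Ednrb were nearly level, and Cadm2 was lower. The Schwann cell markers summed to 29414 to 31200 CPM in naive and 17236 to 22761 in the operated groups. The part of either cell type in the changes of the 7 genes was not tested. When SCI was set against the mean of both control groups, 4 of the 7 rose and none fell, where 7.91% of all genes were called higher and 9.02% lower. In that comparison the log2 change was 0.77 for Fos (SE 0.13, edgeR adjusted p = 0.00241), 1.57 for Fosb (SE 0.28, adjusted p = 0.00332), 0.26 for Junb (SE 0.07, adjusted p = 0.0242) and 0.36 for Atf3 (SE 0.10, adjusted p = 0.0313). These comparisons share their SCI and control libraries and are not separate evidence. Fos and Fosb passed it whichever library was left out, Junb failed without naive 2, naive 3, sham 2, SCI 2 or SCI 3, and Atf3 passed only without sham 1 or without sham 3.

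Within the sham group 4 members ordered the libraries alike. Fos, Fosb, Jun and Atf3 were all lowest in sham 1 and highest in sham 3. Macrophage markers (8 of 8 detected) summed to 116 CPM in sham 1, 149 in sham 2 and 187 in sham 3, against 145 to 153 in SCI and 119 to 137 in naive. Sensory neuron markers ran the other way, from 41910 CPM in sham 1 to 28392 in sham 3, against 31870 to 32162 in SCI. The 10 skeletal muscle genes were each lower in all SCI libraries than in all sham libraries. Their median log2 change was -0.89, beside -0.00078 over all genes. The share of all genes that lay lower in this way was not counted. None of the 10 passed the edgeR test, which called 0% of all genes in this comparison. The part of these differences in the AP-1 values was not tested.

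Among each other, Fos and Fosb had the closest pattern of the 21 pairs of members, with a Pearson r of 0.89 between their log2 CPM over the 9 libraries. After each group's mean was subtracted it was 0.53, and the closest pairs were then Fosb with Fosl2 (0.75) and Fos with Atf3 (0.73). Jund and Atf3 had the lowest value after subtraction (-0.58). These points share libraries, depth and group, so the values are descriptions over 9 points. Of 13050 genes at 1 CPM or more, the 3 most like Fos were Sytl1 (r = 0.96), Secisbp2 (0.92) and Igf2 (0.90), and those most like Fosb were Vav1 (0.95), Reg3b (0.93) and Sytl1 (0.92). Among those most like Fosl2 were Tspan5 (0.95) and Plek2 (0.93), most like Jun were Car4, Hexim1 and Usp21 (0.92 to 0.93), and most like Jund were Gapdh-ps2, Alg3 and Htra1 (0.92 to 0.96). Correlation of ranks (Spearman rho) was lower for some of these: 0.63 for Tspan5 and 0.77 for Plek2 with Fosl2, 0.72 for Reg3b with Fosb and 0.78 for Alg3 with Jund. Junb was closest to Aph1a, Mpg and Thnsl2 (0.97 to 0.98) and Atf3 to Plcd3, Parp2 and Cep63 (0.98 each). With the group means subtracted, Car4 and Hexim1 stayed among the 3 genes nearest to Jun, Tspan5 to Fosl2 and Gapdh-ps2 to Jund, while the 3 nearest to Fos were Igfbp7, Marveld1 and Id1 (0.98 to 0.99) and to Atf3 Dbi, Crebbp and Rps25 (0.991 to 0.997).

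The other genes of the pathway were read from 6 lists. Of 21 tested relatives and dimer partners of AP-1, 5 rose and 5 fell between SCI and naive (23.8% each way, near the share of all genes), and none was called between SCI and sham. Between sham and naive 6 rose and 7 fell (28.6% and 33.3%, beside 24.7% and 25.9% of all genes). Against both control groups none rose and 2 fell (9.52%, beside 9.02% of all genes). Maf, a large Maf protein, fell from 66.8 ± 4.47 CPM in naive to 38.8 ± 3.69 in SCI and 38.0 ± 1.61 in sham (SD, n = 3 each). Creb5 fell between SCI and naive by 0.82 on the log2 scale, Cebpb by 0.55 and Atf7, a Jun partner, by 0.34. Jdp2, a Jun dimerization protein that represses AP-1, rose by 0.51 and Ddit3, a stress-induced C/EBP relative, by 0.52, with edgeR adjusted p values of 0.000406 and 0.000135. Jdp2 and Ddit3 also rose between sham and naive, by 0.60 and 0.71, and the Ddit3 libraries of SCI lay below those of sham (log2 change -0.19, SE 0.08, not passing).

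Among the kinases upstream and the genes listed with them, the shares called against naive were near those of all genes. None was called between SCI and sham, where no gene of any kind was. The JNK pathway phosphorylates c-Jun, and its list held kinases and scaffolds with Sarm1, Nmnat2, Dusp8, Dusp10 and Dusp16. Of its 20 tested genes 6 rose, Nmnat2 among them, and 5 fell between SCI and naive (30% and 25%, beside 23.9% and 24.6% of all genes). The counts were the same between sham and naive, beside 24.7% and 25.9% of all genes. Against both control groups 1 rose (Map3k10), or 5% beside 7.91% of all genes, and none fell. Map3k10, a mixed lineage kinase, rose from a naive level of 66.0 ± 3.78 CPM to 117 ± 4.75 CPM in SCI and 127 ± 14.9 CPM in sham (SD, n = 3 each). Its relative Map3k11, the kinase Map2k7 and the scaffold Mapk8ip1 rose by 0.30, 0.31 and 0.25 on the log2 scale between SCI and naive, while Mapk8, which encodes JNK1, and Map3k5 fell by 0.30 and 0.33. Of 23 genes of the ERK, SRF and CREB routes that induce Fos, 6 rose and 6 fell between SCI and naive (26.1% each way). The counts between sham and naive were again the same. Against both control groups 2 rose and 5 fell (8.70% and 21.7%, beside 7.91% and 9.02% of all genes). Hras and Map2k2 rose by 0.57 and 0.43 between SCI and naive. In that comparison the ribosomal S6 kinase Rps6ka3, its relative Rps6ka5, the coactivator Crebbp and the ternary complex factor Elk4 fell by 0.65 to 0.80. Between SCI and sham the medians of these lists were -0.02 and 0.01.

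The longest list held genes known to rise with Atf3 and Jun in axotomized neurons. Of 37 tested, 29 had a positive log2 change between SCI and sham and none passed. The median was 0.10, beside -0.00078 over all genes, and the share of all genes with a positive change was not counted. Between SCI and naive 14 rose and 9 fell (37.8% and 24.3%, beside 23.9% and 24.6% of all genes). Between sham and naive 10 rose and 11 fell (27.0% and 29.7%, beside 24.7% and 25.9% of all genes), and against both control groups 7 rose and 4 fell (18.9% and 10.8%, beside 7.91% and 9.02%). Vip, a neuropeptide, stood at 0.413 ± 0.167 CPM in naive, 1.09 ± 0.609 in sham and 3.21 ± 0.591 in SCI (SD, n = 3 each). Its level was low, at 0.225 to 0.543 CPM in the naive libraries. The log2 change of Vip between SCI and sham was 1.63 (SE 0.31, edgeR unadjusted p = 0.000142, rank 3) and did not pass (adjusted p = 0.442). Stmn4, a neuronal stathmin, stood at 20.1 ± 1.34, 29.3 ± 2.40 and 33.4 ± 1.76 CPM and its SCI libraries lay above those of sham (log2 change 0.19, SE 0.08, not passing). Chl1, a cell adhesion molecule of growing axons, fell by 1.07 on the log2 scale between SCI and naive and by 1.24 between sham and naive. Flrt3, Klf6 and the cytokine receptor gene Lifr fell between SCI and naive by 0.83, 0.79 and 0.92. Sprr1a, a gene nearly silent in intact ganglia, was below the filter with 5, 6 and 4 counts in SCI, 2, 3 and 0 in sham and 0, 0 and 1 in naive. Npy, the other listed gene below the filter, held 0 counts in every library, those of SCI included.

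Against naive, other immediate early genes did not form 1 pattern with Fos and Fosb. Of 34 tested, 24 were positive between SCI and sham (median 0.10, beside -0.00078 over all genes) and none passed. Between SCI and naive 6 rose and 6 fell (17.6% each way, below the 23.9% and 24.6% of all genes). The counts were the same between sham and naive, beside 24.7% and 25.9% of all genes. Against both control groups 3 rose and 2 fell (8.82% and 5.88%, beside 7.91% and 9.02% of all genes). Egr1 rose against naive in both operated groups, with 16.9 ± 1.16 CPM in naive, 23.4 ± 4.16 in sham and 29.2 ± 3.51 in SCI (SD, n = 3 each), and Gadd45g did too (log2 change 0.75 in SCI and 0.71 in sham). Egr2, which Schwann cells use for myelination, fell from 41.8 ± 1.40 CPM in naive to 23.3 ± 2.87 in sham and 28.4 ± 3.14 in SCI. Nr4a2 and Fbxo33 fell between SCI and naive by 0.60 and 0.61. Sgk1, a glucocorticoid-induced kinase, fell between sham and naive by 0.58, and its SCI libraries lay above those of sham (log2 change 0.35, SE 0.09, edgeR adjusted p = 0.9999). Among 14 tested AP-1 target genes of matrix and inflammation, 4 rose between SCI and naive (Timp1, Il1b, Ccl2 and Icam1, by 0.33 to 0.89), or 28.6% beside 23.9% of all genes, and none fell, while Mmp13 and Mmp9 had changes of -0.64 and -0.63 that did not pass. Between sham and naive 1 of these 14 rose (Timp1) and 1 fell (Mmp13), or 7.14% each way beside 24.7% and 25.9% of all genes. Against both control groups none was called, beside 7.91% of all genes higher and 9.02% lower.

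**Figure D4:**
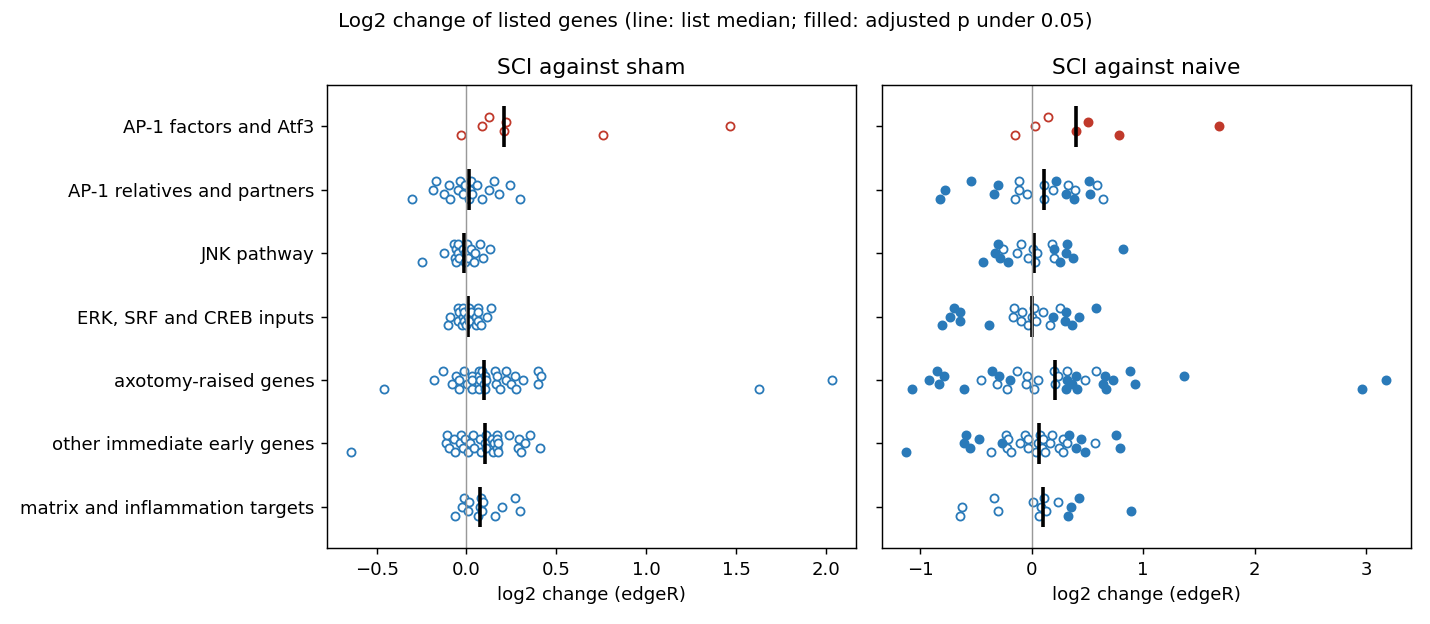
Log2 change of each tested gene (points) in the 7 AP-1 genes and 6 related lists, for SCI against sham at left and SCI against naive at right; filled points passed an edgeR adjusted p of 0.05 and the short vertical line is the list's median. Between SCI and sham no point is filled and medians lie between -0.02 and 0.21; between SCI and naive filled points stand on both sides of 0 in every list except the AP-1 genes and the matrix and inflammation targets, where all lie above.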

How the data were processed

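Per the labels, RNA came from the RNeasy Mini Kit and the paired-end TruSeq V2 kit, which does not mark strand, gave the libraries. The authors deposited raw, whole-number read counts by gene for 9 libraries. The submitters' processing notes list FastQC, Trimmomatic, TopHat2, HTSeq and DESeq2. Versions, build and annotation: not given in the sources used here.

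Groups were taken from the treatment label. All 9 libraries were fitted at once with edgeR's quasi-likelihood test (version 4.0.16, R 4.3.3), with TMM factors, filterByExpr at its defaults, 1 mean per group (6 residual degrees of freedom) and p-values adjusted by Benjamini-Hochberg over all 16627 genes tested; calls are at an adjusted p under 0.05. The SE was taken from the log2 change and its F value, and CPM used TMM-scaled library sizes (log2 CPM with a prior count of 2). A gene at 1 CPM rests on 16.7 to 32.1 counts, so counting error adds to the spread of Fosb and Fosl2. The test was tested on simulated data, and the outcome is not reported here. Alternatives to scaling (RLE, upper-quartile), to the filter (none, strict), to the test (DESeq2 1.42.0, voom of limma 3.58.1, a robust spread), to the fit (only the groups compared, a replicate block, each library left out) and to the threshold (adjusted p under 0.1) were tried.

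The members and lists were chosen with earlier results of these data known. From each list up to 6 genes with the smallest p over the 4 comparisons were named, and the 3 genes most like each member by Pearson r; some genes that this rule takes are not reported here. Other genes named in the text (Sprr1a, Npy and genes overlapping members) were chosen after their values were seen. Of 242 symbols listed in the 6 lists and the cell type marker lists together, 234 were in the table and 217 were tested. RefSeq's gene table (GRCr8) served for older names and neighbouring genes only.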

Additional observations from a re-analysis of the deposited data

How the results depend on the processing

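Of 434 alternatives to the log2 change of the 7 genes, 393 kept direction and side of the threshold, 14 lost the call, 11 gained it and 16 changed sign; the cause of each change was not tested. The count of 0 members called between SCI and sham became 2 without a low-count filter and 1 with DESeq2, and ran from 0 to 1 with 1 library left out (Fos without sham 3). Between SCI and naive 4 members were called with every library left out in turn. Between sham and naive the count of 1 became 2 under RLE scaling, upper-quartile scaling, no filter, DESeq2 and an adjusted p under 0.1, where Atf3 joined Junb, and ran from 0 (without naive 2 or naive 3) to 2 (without sham 1). Against both control groups it ran from 2 to 4. Over all genes, the 0 calls between SCI and sham became 11 without a filter and 8 with DESeq2, and ran from 0 to 22 (without sham 3); the 2815 calls against both control groups ran from 879 (without SCI 2) to 4934 (without sham 3).

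Jun passed between SCI and naive under upper-quartile scaling (edgeR adjusted p = 0.0414) and with only the groups compared (0.0277). The changes of sign were in small values that passed no test. With 1 library left out, the log2 change ran from -0.15 to 0.18 for Fos between sham and naive and from -0.13 to 0.16 for Fosl2 against both control groups. For Jund it ran from -0.0187 to 0.0699 between SCI and naive, -0.0926 to 0.0400 between SCI and sham, -0.0236 to 0.121 between sham and naive and -0.0324 to 0.0412 against both control groups, where it was also 0.0070 under upper-quartile scaling, 0.0020 without a filter, 0.0019 with limma-voom and 0.0012 with the replicate block.

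The replicate numbers are shared by the groups, but libraries of 1 number did not deviate together (1 of 9 same-number correlations was over 0.1, range -0.09 to 0.12). They were not treated as pairs in the main fit. With 3 libraries per group these correlations cannot show that the libraries were unpaired. A replicate block left 0 genes called between SCI and sham, 7848 between SCI and naive, 8153 between sham and naive and 2477 against both control groups, and changed no call of a member. Depth limits Fosb and Fosl2 most, at 20 to 127 and 26 to 69 counts per library, and with 3 libraries per group no outlier check was made.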
